A study of Mus musculus with 13 samples.

Results

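R-loop maps of N2a cells labelled siEXOSC3 were set against maps of N2a cells labelled siDDX1. N2a is a mouse neuroblastoma line, and the labels name no engineered allele in any group. The cells were transfected with siRNA against Exosc3 or Ddx1, and a scramble siRNA served as the control of the study. The members were the 3 untreated siEXOSC3 and the 3 untreated siDDX1 libraries, 6 of the 13 samples of the series. Untreated means here that the DNA was not digested with RNase H before the pull-down. The methods name siRNAs against Exosc3 but do not say which one gave these libraries, and the 3 replicates of a condition started from 3 plates. Nothing used here says that the plates were transfected on separate days, so p-values measure the spread between these libraries only.

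Each library was placed in its group by its title, and its genotype field says the same. The peak names and the file names carry another treatment in 12 of 12 peak lists. By those names the siEXOSC3 libraries are siScramble libraries, the siDDX1 libraries are siEXOSC3 libraries, and the siScramble libraries are siDDX1 libraries. The comparison is then scramble control against EXOSC3 depletion, and every value given for siDDX1 is one of EXOSC3 depletion. The names siEXOSC3, siDDX1 and siScramble stand for the titles throughout, and the files used here do not settle which reading holds.

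An R-loop forms when RNA hybridises to its template DNA and leaves the second DNA strand unpaired. R-loops are known to form during transcription, often near promoters and at sequences rich in G on the displaced strand. EXOSC3 belongs to the noncatalytic cap of the RNA exosome, a ribonuclease complex that trims and degrades RNA in the nucleus and the cytoplasm. DDX1 is a DEAD-box protein and putative RNA helicase with known roles in RNA processing and at R-loops. In DRIP-seq, DNA is cut with restriction enzymes, hybrids of RNA and DNA are pulled down with the S9.6 antibody, and the DNA is sequenced. Peaks are stretches where sequenced fragments pile up above a local background, and column 7 of a peak list gives the fold over that background at the summit.

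Sequences about the summits of 5 regions are given as examples of the DNA in the regions described here. They are the 2 leading regions called only in siEXOSC3 libraries, a region called only in siDDX1 libraries, and the leading region of each direction in summit pileup. Windows that overlap an annotated exon were passed over. Each holds 200 bases of build mm9, plus strand, 5′ to 3′, and capitals mark runs of at least 3 G or at least 3 C.
Dcaf15 intron, siEXOSC3 only, chr8:86624474-86624673: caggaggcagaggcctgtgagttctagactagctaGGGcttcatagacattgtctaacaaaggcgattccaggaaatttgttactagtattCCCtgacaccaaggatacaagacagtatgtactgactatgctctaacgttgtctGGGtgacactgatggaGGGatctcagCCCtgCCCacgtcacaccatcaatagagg
14.7 kb from Nanos3, siEXOSC3 only, chr8:86716494-86716693: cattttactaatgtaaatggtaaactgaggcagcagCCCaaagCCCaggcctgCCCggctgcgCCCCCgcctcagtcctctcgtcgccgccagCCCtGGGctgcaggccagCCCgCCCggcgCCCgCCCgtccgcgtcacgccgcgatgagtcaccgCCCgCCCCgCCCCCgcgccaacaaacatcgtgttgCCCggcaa
4.99 kb from Traf1, siDDX1 only, chr2:34822630-34822829: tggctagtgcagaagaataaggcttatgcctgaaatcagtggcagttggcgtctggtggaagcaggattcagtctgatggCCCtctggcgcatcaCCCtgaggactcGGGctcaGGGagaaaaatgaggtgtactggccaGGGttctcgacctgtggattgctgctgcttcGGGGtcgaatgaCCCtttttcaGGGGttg
Gatad2a intron near the start, higher summit pileup in siEXOSC3, chr8:72498329-72498528: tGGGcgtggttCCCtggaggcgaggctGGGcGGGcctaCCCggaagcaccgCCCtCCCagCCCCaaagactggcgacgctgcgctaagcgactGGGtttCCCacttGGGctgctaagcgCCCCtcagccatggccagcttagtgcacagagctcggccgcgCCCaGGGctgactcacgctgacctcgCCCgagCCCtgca
Cct4 intron near the start, lower summit pileup in siEXOSC3, chr11:22891052-22891251: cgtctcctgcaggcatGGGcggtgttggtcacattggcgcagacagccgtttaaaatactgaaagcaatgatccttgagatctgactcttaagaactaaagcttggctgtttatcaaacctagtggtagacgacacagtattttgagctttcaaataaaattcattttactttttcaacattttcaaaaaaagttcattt

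The 2 siEXOSC3-only windows held 6 and 14 such runs, with 48.0% and 70.0% GC, and the siDDX1-only window held 8 runs, with 55.0% GC. The window of Serbp1, the leading siDDX1-only region, is not shown and held 3 runs, with 48.5% GC. Median GC content of the summit windows was 51.0% in siEXOSC3-only and 45.0% in siDDX1-only regions. The Gatad2a window, higher in siEXOSC3, held 16 runs and 69.5% GC. The Cct4 window, lower in siEXOSC3, held 1 run and 38.0% GC. GGG or CCC occurred in 98.1% of the summit windows of all merged regions, so its presence does not set the groups apart. The number of runs per window had a median of 6 in siEXOSC3-only regions, 4 in siDDX1-only regions, and 5 both in regions called in all 6 libraries and in all regions.

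The siEXOSC3 lists held 27391, 30482 and 42571 peaks, and the siDDX1 lists held 40136, 24167 and 30338 peaks. The ranges overlapped, and the means of log2 peak number differed by 0.09 (exact permutation test, two-sided, p = 0.7, adjusted p = 0.8, n = 3 and 3). With 3 libraries against 3, the smallest p this test can give is 0.1. Read totals were not used here, but the local background under the peaks, recovered from the fold and the p-value of each peak, gives the relative depth. It was 0.609, 0.635 and 0.554 fragments for siEXOSC3 and 1.29, 0.627 and 0.544 fragments for siDDX1. siDDX1 replicate 1 thus lay at 1.82 times the mean of the 6 libraries. Of 16 neuroblastoma identity genes, 12 held a peak in at least 1 of the 6 libraries, among them Phox2a, Hand2, Mycn and Ret. Dbh, Th and Stmn2 were among those that held none. Of 16 defining genes of other lineages only Cd4 did, which describes R-loop peaks and not expression.

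Peaks near transcription starts took a larger share of the siEXOSC3 lists on average, and peaks in introns a smaller one, with neither difference past the test. The share of peaks within 1 kb of a transcription start was 28.4%, 25.8% and 23.8% in siEXOSC3 and 22.5%, 24.1% and 22.9% in siDDX1. The groups overlapped by 1 library (means 26.0% ± 2.30 and 23.2% ± 0.831, SD, n = 3 each, exact permutation test, adjusted p = 0.35). The intron share went the other way, at 46.8% ± 2.92 and 51.1% ± 1.39 (SD, n = 3, exact permutation test, adjusted p = 0.35). The mean GC content of peaks was 50.4%, 49.8% and 49.6% in siEXOSC3 and 48.7%, 49.1% and 49.0% in siDDX1. These groups did not overlap, and p = 0.1 was the smallest the exact test can give (adjusted p = 0.35). The Jaccard index (shared over combined covered bases of 2 libraries) averaged 0.497 within siEXOSC3, 0.444 within siDDX1 and 0.456 between them. The mean within groups exceeded the mean between them by 0.0138 (exact permutation test over 10 splits, one-sided, p = 0.3).

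Merging the peaks of the 6 libraries gave 61845 regions covering 65.7 Mb, with a median width of 503 bases. Of these, 30083 (48.6%) were called in 1 library only, and 8348 were called in all 6. Regions called in 3 of 3 siEXOSC3 and in 0 of 3 siDDX1 libraries numbered 378, which is 0.611% of all regions. The converse pattern held for 323 regions, 0.522% of all regions. These counts carry no test, since 3 calls against 3 cannot pass one.

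**Figure D1:**
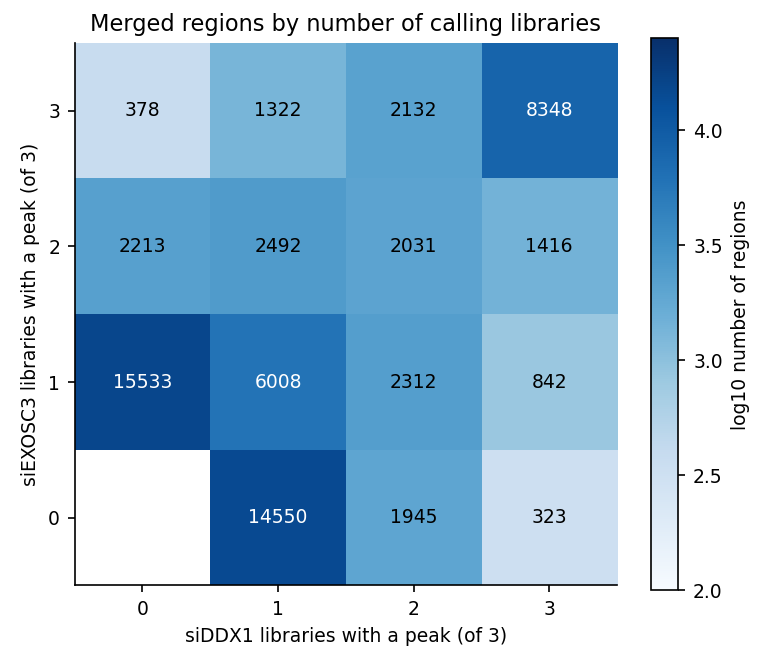
Number of merged regions by how many of the 3 siEXOSC3 libraries (vertical axis) and of the 3 siDDX1 libraries (horizontal axis) hold a peak, with colour on a log10 scale. The 378 siEXOSC3-only and 323 siDDX1-only regions sit in the upper left and lower right corners, beside 8348 regions called in all 6 and 15533 and 14550 regions called in a single library.

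The counts of one-sided regions depended on the setting. At a −log10 q of at least 5 they were 235 and 128, and with an equal number of peaks from each list they were 343 and 374, so that their order turned. Leaving out 1 library relaxed the call, and the siEXOSC3-only count then ranged from 765 to 1401 without a siEXOSC3 library and from 435 to 1496 without a siDDX1 library. The siDDX1-only count ranged from 545 to 1403 without a siDDX1 library and from 423 to 935 without a siEXOSC3 library. One-sided peaks were also shallow. In siEXOSC3-only regions the median summit pileup, the number of fragments stacked at the summit, was 8, 8 and 9 in the 3 siEXOSC3 libraries. In regions called in all 6, the same libraries had medians of 13, 13 and 19. In siDDX1-only regions the median was 12, 8 and 8 in the 3 siDDX1 libraries. A peak of the other group lay within 1 kb of 53.4% of the siEXOSC3-only and 49.5% of the siDDX1-only regions.

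The regions called on one side lay in different parts of genes. Of the siEXOSC3-only regions, 124 (32.8%) lay within 1 kb of a transcription start and 144 (38.1%) in introns. Of the siDDX1-only regions, 40 (12.4%) lay near a start and 212 (65.6%) in introns. Over all 61845 regions these shares were 19.7% and 55.4%. A transcription start of a protein-coding gene itself was covered by 70 siEXOSC3-only regions (18.5%) and by 17 siDDX1-only regions (5.26%). Leaving out each library in turn kept the siEXOSC3-only share near starts between 25.1% and 37.3% and the siDDX1-only share between 11.0% and 13.2%.

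GC content moved with this split. The median GC content was 51.7% in siEXOSC3-only regions, 44.9% in siDDX1-only regions and 50.8% in regions called in all 6. Across quintiles of all regions ordered by GC content, siEXOSC3-only regions made up 0.259%, 0.388%, 0.558%, 0.655% and 1.20% of a quintile from low to high. siDDX1-only regions made up 0.817%, 0.824%, 0.534%, 0.259% and 0.178%. Within introns alone, the highest quintile held 29 siEXOSC3-only and 12 siDDX1-only regions, and the lowest quintile held 16 and 72. Near starts the highest quintile held 82 and 7, and the lowest held 4 and 7. The part of GC content in the difference between the groups was not tested.

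**Figure D2:**
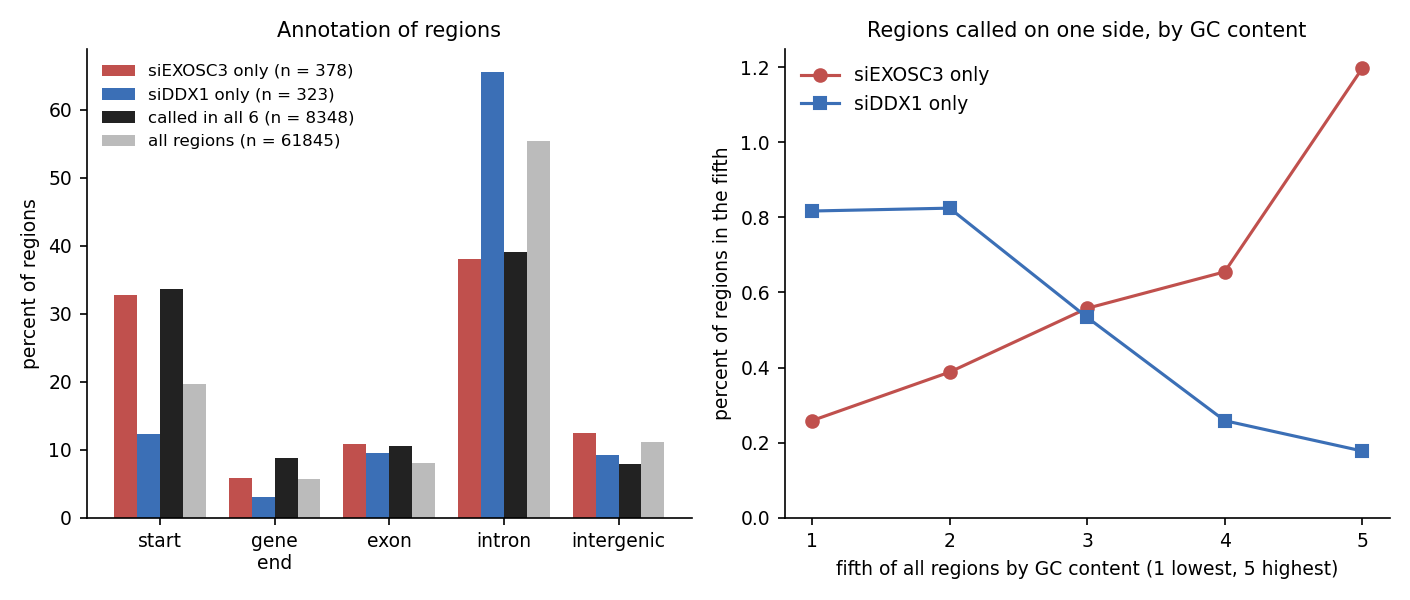
Left, percent of regions (vertical axis) near a transcription start (within 1 kb), near a gene end (within 1 kb), in an exon, in an intron or intergenic, for regions called only in siEXOSC3 libraries, only in siDDX1 libraries, in all 6 libraries, and for all merged regions. Right, percent of the merged regions in each quintile of GC content that were called only in siEXOSC3 or only in siDDX1 libraries, which runs from 0.259% up to 1.20% for siEXOSC3 and from 0.817% down to 0.178% for siDDX1.

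The libraries titled siScramble took no part in the merging. None of these 3 had a peak in 136 (36.0%) of the siEXOSC3-only regions, in 49 (15.2%) of the siDDX1-only regions and in 41.1% of all regions. All 3 had one in 34 (8.99%) and 56 (17.3%), against 20.0% of all regions. In the RNase H-digested libraries, 12 siEXOSC3-only regions (3.17%) and 17 siDDX1-only regions (5.26%) overlapped a peak, against 3.26% of all regions and 5.74% of those called in all 6.

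The leading siEXOSC3-only regions were ranked by the lowest of their 3 fold values. The first lay in an intron of Dcaf15, which encodes a substrate receptor of a CUL4 ubiquitin ligase (chr8:86624327-86624768). Its fold was 9.32, 12.2 and 14.8 in the 3 siEXOSC3 libraries, with no peak in any siDDX1 library, although a siDDX1 peak lay 351 bases away. The second lay 14.7 kb from Nanos3 (7.46, 7.69 and 6.94), a germ cell gene, and the third in an intron of Kif18b (6.83, 7.95 and 8.22), a mitotic kinesin. The others lay in BC057022, Gm17296 and Ptprt, at the starts of Gm11734 and Gm20388, 57.0 kb from Zfp706 and 1.43 kb from Usp11, a deubiquitinase. Kif18b, Ptprt, Gm20388 and the regions by Zfp706 and Usp11 stayed siEXOSC3-only at a −log10 q of at least 5, after joining of peaks, with equal peak numbers, and with no siDDX1 peak within 1 kb. The regions in Dcaf15, BC057022 and Gm17296 were siEXOSC3-only in 2 of these 4 settings, and that of Gm11734 in 3. The region by Nanos3 was siEXOSC3-only in 1 of them, with equal peak numbers.

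Among siEXOSC3-only regions over a protein-coding start, Lama5, encoding a laminin chain, came first with folds of 6.21, 6.12 and 7.08. Btbd19 (6.83, 6.12 and 7.72) and Grsf1 (6.83, 6.12 and 8.36) followed. Grsf1 encodes a protein that binds G-rich RNA in mitochondria, and its region was 70.1% GC. The next were Hamp, Sap30l, Ddhd1, Cend1, Jup, Cog3 and Sall3, with lowest folds from 5.50 to 5.93. Hamp encodes the hormone hepcidin, Sap30l a component of the Sin3 deacetylase complex, Cend1 a neuronal protein linked to cell cycle exit, Jup plakoglobin, and Sall3 a zinc finger transcription factor. Their GC content ran from 50.2% at Hamp to 70.5% at Sall3. Of these start regions, Btbd19, Grsf1, Ddhd1, Jup and Sall3 stayed siEXOSC3-only in all 4 settings named above. Lama5, Sap30l, Cend1 and Cog3 did so in 3, and Hamp in 2.

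The leading siDDX1-only region covered an exon and intron of Serbp1, which encodes an mRNA-binding protein found on ribosomes. Its fold was 8.15, 7.99 and 9.69 in the siDDX1 libraries and no siEXOSC3 library had a peak there. Ranbp2, a nuclear pore protein gene, followed with 7.42, 8.61 and 9.07, then a region 4.99 kb from Traf1 with 7.36, 7.38 and 8.42. Snw1, encoding a cofactor of transcription and splicing, had 6.98, 8.61 and 7.12 over its start. The remaining ones lay in introns of Scpep1, Sel1l, 9630014M24Rik, Ero1l, Cct2 and Prpf8. Sel1l encodes a part of the machinery that removes misfolded proteins from the endoplasmic reticulum, Ero1l an oxidase of that compartment, Cct2 a chaperonin subunit and Prpf8 a core spliceosome protein. All 3 siScramble libraries called the regions in Serbp1, Ranbp2, Sel1l, Ero1l and Prpf8. The same 4 settings were applied here, the last with no siEXOSC3 peak within 1 kb. Serbp1, Scpep1, Ero1l, Cct2 and the region by Traf1 stayed siDDX1-only in all 4. Ranbp2 and Sel1l did so in 3, and Snw1, 9630014M24Rik and Prpf8 in 2. Genes such as Serbp1 have processed copies elsewhere in the genome, so their levels are uncertain.

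siDDX1-only regions over protein-coding starts numbered 17, against 70 siEXOSC3-only ones. The first 10 by fold therefore reach further down the siDDX1 list, and the folds of the 2 rankings cannot be set against each other. Behind Snw1, the lowest fold of the 3 libraries was 4.92 at Tpm3, 4.84 at Tmem66, 4.80 at Prpf19, 4.53 at Glud1, Hdac3 and the shared start region of Als2cl and Tmie, 4.42 at Sh2d6, 4.36 at Ifngr2 and 4.30 at Ipo9. Prpf19 encodes a ubiquitin ligase of the spliceosome, Hdac3 a histone deacetylase and Ipo9 an importin. None of these 9 kept its pattern in all 4 settings named above.

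Some genes held several one-sided regions. Slit3, encoding a secreted axon guidance ligand, held 3 siEXOSC3-only regions, all intronic, and Tmprss9 held 3, while Tbc1d24, Ddhd1 and Jup held 2 each. On the siDDX1 side, Celf4 held 6, Ankrd11 4, Magi1 and Itga6 3 each and Prune2 2. Celf4 encodes a neuronal RNA-binding protein, Ankrd11 a chromatin regulator and Itga6 an integrin subunit. The 6 Celf4 regions lay in introns, most of them in a stretch towards the start of the gene (chr18:25877600-25898028). Their fold ranged over the 3 siDDX1 libraries from 3.82 to 7.77. They share one gene and are not independent of each other.

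The genes of the siRNA targets and of the loci shown by the study were compared by the bases of the gene that peaks covered. Peaks covered 2344, 2746 and 3093 bases of Ddx1 in siEXOSC3 and 5033, 2013 and 2603 bases in siDDX1, and these ranges overlapped. Exosc3 had 0, 316 and 810 covered bases in siEXOSC3 and none in any siDDX1 library. A peak of siDDX1 replicate 1 just beyond the gene start (chr4:45356011-45356348, fold 6.54) lay outside the gene body and was not counted. A peak over a target gene does not measure its depletion, so these values do not check the labels. Celf4 had 1971, 4109 and 7825 covered bases in siEXOSC3 and 16556, 8910 and 12433 in siDDX1, with no overlap between the groups. Bambi, encoding a decoy receptor of TGF-beta signalling, had 721, 280 and 1517 covered bases in siEXOSC3 and none in siDDX1. Celf4 and Bambi both reached p = 0.1, the smallest the exact permutation test can give, with adjusted p = 0.25 over the 5 genes. Both kept p = 0.1 in the exact permutation test with equal peak numbers and after joining of peaks. Neither reached it at a −log10 q of at least 5. Celf4 then differed by −3836 bases (exact permutation test, p = 0.2, n = 3 and 3). Bambi then differed by 547 bases (exact permutation test, p = 0.4, n = 3 and 3). The highest value of Celf4, 16556 bases, belongs to siDDX1 replicate 1, the deepest library.

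A merged region of 1223 bases in an intron of Bambi held a peak in 3 of 3 siEXOSC3 libraries, with folds of 4.97, 6.73 and 8.36, and in no siDDX1 or siScramble library. The start of Celf4 was called in all 6 libraries, with folds of 6.21, 7.34 and 11.6 in siEXOSC3 and 7.85, 6.15 and 8.42 in siDDX1 (limma, log2 difference of −0.07, SE 0.22, adjusted p = 0.92). The ranges of its start region overlapped, unlike those of the bases covered over the whole gene.

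In the 8348 regions called in all 6 libraries, the fold itself could be compared. The median log2 fold was 3.01, 2.99 and 3.55 in siEXOSC3 and 3.19, 2.76 and 3.02 in siDDX1, which overlapped (means 3.19 ± 0.32 and 2.99 ± 0.22, SD, n = 3, exact permutation test, p = 0.6). Each library was centred on its own median before the test, and all differences given for these regions are relative to that centre. limma on log2 fold called 0 regions higher (0%) and 1 region lower (0.012%) in siEXOSC3 at an adjusted p under 0.05. At an unadjusted p under 0.05, 14.2% of the regions passed, 638 higher and 546 lower. On centred values the 2 groups did not overlap in 855 regions higher in siEXOSC3 (10.2%) and in 763 regions lower (9.14%). In simulated data of the same 8348 regions, with 200 changed, this fit recovered 47% of 2-fold and 92% of 4-fold changes. The simulation drew independent normal noise for each region, with the mean and spread of that region. Shifts shared by many regions of a library were not simulated, so these shares hold for that setting only.

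The region that passed lies at Hbs1l, encoding a GTPase that helps release stalled ribosomes (chr10:21015289-21018827). It covers the start of the gene, although its midpoint is intronic. Its fold was 6.83, 7.58 and 8.15 in siEXOSC3 and 24.0, 13.5 and 18.1 in siDDX1. All 3 siDDX1 libraries lay above all siEXOSC3 libraries (log2 difference of −1.46, SE 0.22, limma adjusted p = 0.010). The call on fold was lost without siEXOSC3 replicate 1 (adjusted p = 0.093), without siDDX1 replicate 3 (adjusted p = 0.058) and without centring (adjusted p = 0.31). On summit pileup the Hbs1l difference was smaller, at −0.85 (SE 0.20, limma adjusted p = 0.036). The fold also depends on the local background under the summit, and the part of that background in the larger difference was not tested.

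The largest differences towards siEXOSC3 among regions whose groups did not overlap missed the threshold on fold. Ints6, encoding a subunit of the Integrator complex, had a fold of 26.1, 25.1 and 28.3 in siEXOSC3 and 14.1, 9.07 and 8.02 in siDDX1 over its start (chr14:63378234-63381200). The lowest siEXOSC3 library lay well above the highest siDDX1 library (log2 difference of 1.20, SE 0.22, limma adjusted p = 0.073). On summit pileup the Ints6 difference was smaller, at 0.77 (SE 0.19). An exon of Ahnak2, encoding a large scaffold protein, had 15.5, 23.9 and 18.7 against 11.3, 5.53 and 4.53 (1.34, SE 0.28, adjusted p = 0.077). St3gal4, a sialyltransferase gene, had 8.08, 9.17 and 16.1 against 3.38, 3.69 and 4.52 (1.27, SE 0.24, adjusted p = 0.073). Nelf, linked to the migration of neurons that make gonadotropin-releasing hormone, had 11.1, 11.5 and 13.4 against 3.49, 5.26 and 4.53 at its start (1.26, SE 0.25, adjusted p = 0.077). Cbx2, encoding a Polycomb subunit, had 31.7, 31.2 and 22.4 against 16.8, 6.15 and 10.4 (1.26, SE 0.28, adjusted p = 0.077). On summit pileup the Cbx2 difference was 0.58 (SE 0.18, adjusted p = 0.088).

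Towards siDDX1, the same rule named 4 regions beside Hbs1l, none of which passed on fold. Cct4, a chaperonin subunit gene, had 8.27, 4.10 and 8.52 in siEXOSC3 and 14.0, 12.4 and 11.7 in siDDX1 near its start (log2 difference of −1.13, SE 0.25, limma adjusted p = 0.077). Atf6, encoding a membrane-bound transcription factor activated by misfolded protein in the endoplasmic reticulum, had 5.29, 5.25 and 10.2 against 11.9, 12.3 and 12.4 (−1.09, SE 0.22, adjusted p = 0.077). Ppp1r15b, whose product directs dephosphorylation of the initiation factor eIF2α, had 6.40, 3.59 and 16.0 against 15.7, 12.3 and 12.1 in an exon (−1.09, SE 0.29, adjusted p = 0.13). The deposited values of Ppp1r15b overlap, and the groups part only after centring. Ptp4a2, a phosphatase gene, had 4.35, 4.41 and 5.55 against 8.29, 11.1 and 7.12 in an intron (−1.07, SE 0.25, adjusted p = 0.086).

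**Figure D3:**
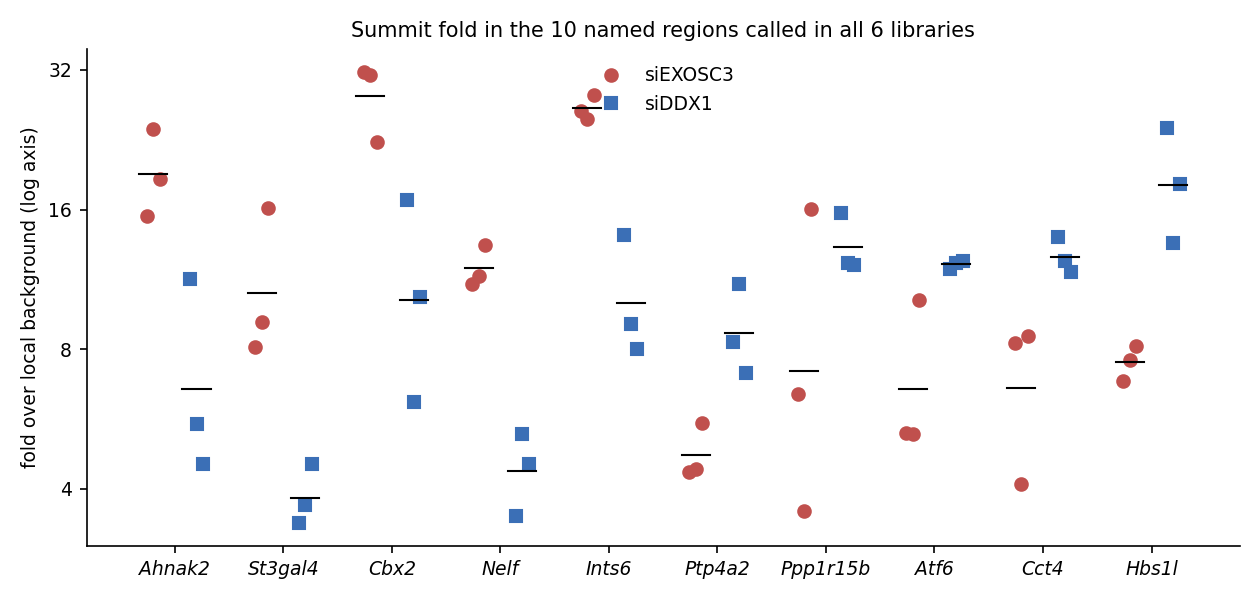
Fold over the local background at the summit (vertical log axis) in 10 regions called in all 6 libraries, with 1 point per library, siEXOSC3 as circles and siDDX1 as squares, and lines at the geometric means of 3 libraries. Hbs1l, at the right, is the region that passed the test on fold, with 6.83 to 8.15 in siEXOSC3 and 13.5 to 24.0 in siDDX1, and the raw values of Ppp1r15b overlap.

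The number of fragments at the summit, fitted in place of the fold, gave more calls. Its further settings were added after the data were seen. It was recovered as a whole number for 100% of the peaks, within a tolerance of 0.001 on the −log10 p that widens in proportion for high values. limma on log2 summit pileup called 58 regions higher (0.695%) and 24 lower (0.287%) in siEXOSC3, and 17.2% of the regions passed at an unadjusted p. In data simulated in the same way, with independent noise, it recovered 62% of 2-fold and 97% of 4-fold changes. The number of calls depended on single libraries. Without siDDX1 replicate 3 there were 0 and 0, without siDDX1 replicate 2 there were 1 and 0, without siEXOSC3 replicate 1 there were 0 and 2, without siEXOSC3 replicate 2 there were 6 and 3, and without siEXOSC3 replicate 3 there were 18 and 50. Without the deep siDDX1 replicate 1 there were 73 and 22. After removal of a linear GC term from each library, 9 and 13 regions passed.

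Of the 58 regions higher in siEXOSC3, 45 (77.6%) covered a protein-coding start, against 42.7% of all 8348, and their median GC content was 55.7%. Of the 24 lower regions, 13 (54.2%) covered one, and their median GC content was 47.0%. The differences ran from 0.68 to 1.48 and from −1.27 to −0.82 on the log2 scale. The genes named next were chosen after their values were seen, as the 10 largest differences in each direction.

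Ahnak2 led the higher regions, with summit pileups of 24, 38 and 28 in siEXOSC3 and 25, 8 and 6 in siDDX1 (log2 difference of 1.48, SE 0.27, limma adjusted p = 0.021). siDDX1 replicate 1 is about as high as siEXOSC3 before its greater depth is taken out. Nelf, St3gal4, Gatad2a, Plxna1, Zfp219, Sik3, Lonrf1, Zfp553 and Hist1h2ak followed, with differences from 1.35 down to 1.04. Plxna1, encoding a semaphorin receptor, had 30, 21 and 43 against 18, 12 and 13 (1.10, SE 0.21, adjusted p = 0.021). Gatad2a encodes a subunit of the NuRD complex and Sik3 a salt-inducible kinase. Hist1h2ak belongs to a cluster of near-identical histone genes, so its level is uncertain. St3gal4, Zfp219, Sik3 and Hist1h2ak also passed after the GC term was removed, and Ahnak2 did not (adjusted p = 0.077). Ints6 passed on summit pileup, with 41, 40 and 43 against 45, 18 and 18 (0.77, SE 0.19, adjusted p = 0.046), and missed it without the GC term (adjusted p = 0.26).

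Cct4 led the lower regions, with 13, 6 and 14 in siEXOSC3 and 40, 22 and 18 in siDDX1 (−1.27, SE 0.25, limma adjusted p = 0.021). A region 40.5 kb from Thap1 followed with 14, 10 and 22 against 52, 31 and 26 (−1.24, SE 0.21, adjusted p = 0.017). Srpk1, Rsl1d1, Aldh1l2, Mtap1b, Atf6, Odz4, Unc5b and Prep came next, from −1.17 to −1.01. Srpk1 encodes a kinase of splicing factors, Rsl1d1 a nucleolar protein, Aldh1l2 a mitochondrial folate enzyme, Mtap1b a microtubule protein of neurons, Odz4 a teneurin and Unc5b a netrin receptor. Of these 10, Rsl1d1 (adjusted p = 0.072) and Aldh1l2 (adjusted p = 0.11) did not pass after the GC term was removed. Among the remaining lower regions were the starts of Atf3 (−0.97, adjusted p = 0.040) and Ppp1r15b (−0.86, adjusted p = 0.032), and Hbs1l passed on this readout too (−0.85, SE 0.20, adjusted p = 0.036). Atf3 encodes a transcription factor induced by stress.

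**Figure D4:**
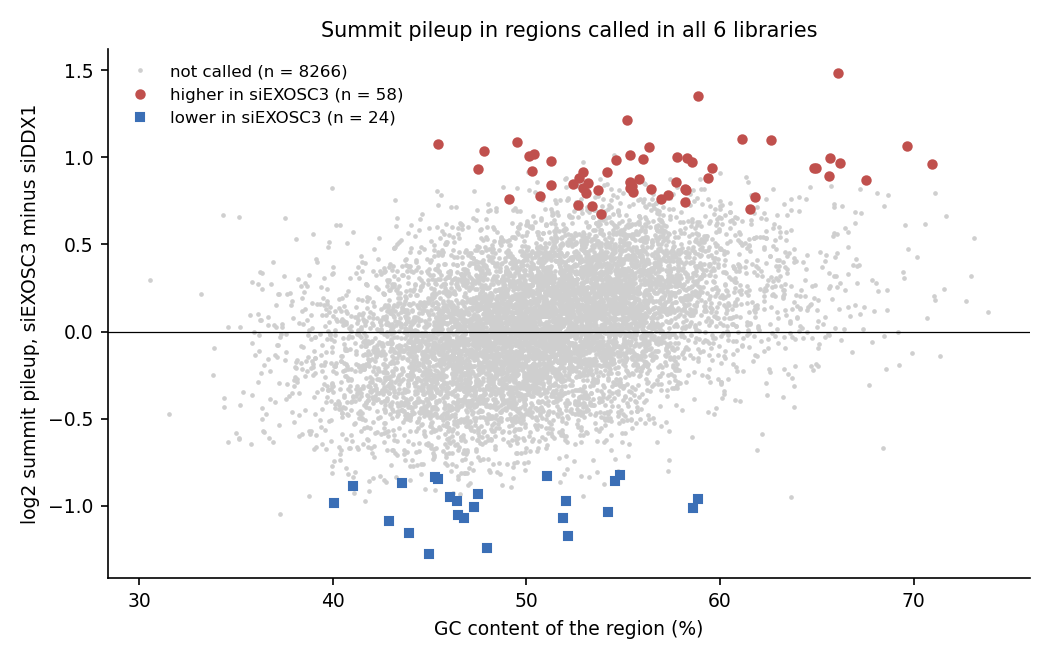
Difference of mean log2 summit pileup, siEXOSC3 minus siDDX1 (vertical axis), against the GC content of the region (horizontal axis), for the 8348 regions called in all 6 libraries, with 1 point per region. The 58 regions called higher have a median GC content of 55.7% and the 24 called lower one of 47.0%, and the cloud of regions that were not called rises with GC content as well.

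The relation to GC content ran through all regions called in all 6. The slope of log2 fold on GC content was 0.333, 0.247 and 0.357 per 10 percentage points in the siEXOSC3 libraries. In the siDDX1 libraries it was 0.171, 0.0656 and 0.0616, all below the lowest siEXOSC3 library. The siScramble libraries, over the 7541 to 8141 of these regions that they call, had 0.104, 0.0795 and 0.0480. The difference between siEXOSC3 and siDDX1 of 0.21 reached the smallest p of the exact permutation test (p = 0.1, adjusted p = 0.133 over 4 measures). The median difference of log2 fold between the groups was −0.16 in the lowest quintile of GC content and 0.18 in the highest. It was 0.07 in regions near starts and −0.07 in introns. Regions near starts exceeded regions in introns by a median log2 fold of 0.342, 0.232 and 0.289 in siEXOSC3 and 0.269, 0.110 and 0.112 in siDDX1 (exact permutation test, p = 0.2, adjusted p = 0.2). The parts of GC content and of position in these differences were not tested.

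**Figure D5:**
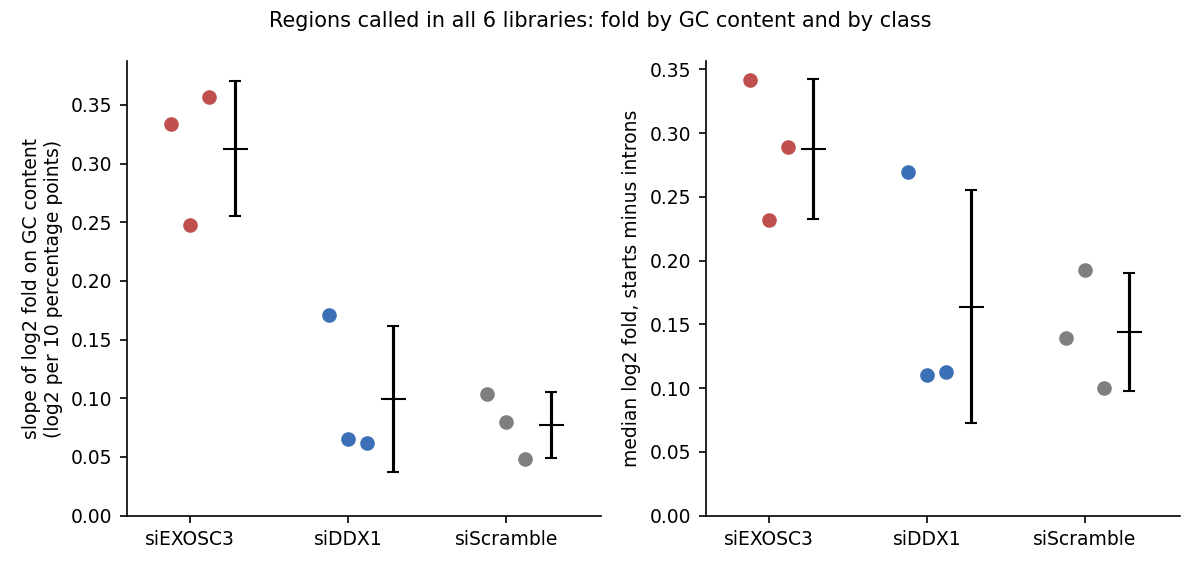
Slope of log2 fold on GC content (left) and median log2 fold of regions near starts minus regions in introns (right), with 1 point per library and, beside each group, the mean and SD of 3 libraries. The 3 siEXOSC3 slopes lie between 0.247 and 0.357, above the 3 siDDX1 slopes, of which the highest is 0.171, and above the 3 siScramble slopes.

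One-sided regions in lists of genes with related roles were counted beside those of all protein-coding genes. Over all 22380 protein-coding genes, 46.8% held a region, 24.6% held one called in all 6, 1.36% a siEXOSC3-only and 1.21% a siDDX1-only region. Of 25 genes of the RNA exosome and its nuclear cofactors, 24 held a region and 18 held one called in all 6. None held a one-sided region and none passed on summit pileup, where the median difference of the members was −0.02 against 0.04 for all regions. A list of 37 genes of R-loop resolving enzymes also held genes that encode no enzyme, such as Bub3 and Srsf1. Of these 37 genes, 33 held a region and 22 one called in all 6. Bub3 alone was one-sided there, with a siEXOSC3-only region over its start (4.97, 4.28 and 6.43). Of 16 Integrator genes, 7 held a region called in all 6 and Ints6 was the 1 that passed on summit pileup, with a median of 0.16 over the list. Of 38 matched snoRNA host genes, 35 held a region called in all 6, none passed on summit pileup, and Tcp1 held a siDDX1-only region (6.54, 9.22 and 5.83). Tcp1 encodes another subunit of the chaperonin of Cct2 and Cct4.

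Axon guidance genes were split. Of 64, 34 held a region and 16 one called in all 6, while 2 (3.13%) held a siEXOSC3-only and 4 (6.25%) a siDDX1-only region. Slit3 held 3 siEXOSC3-only regions beside 7 called in all 6, and the start of Plxnb1 (4.75, 5.50 and 5.69) was called in siEXOSC3 only. Unc5b, Sema4d, Sema6a and Plxnc1 each held a siDDX1-only region, with lowest folds from 3.69 to 4.30. Beside it, Unc5b, Sema4d and Sema6a held 9, 5 and 1 regions called in all 6. On summit pileup Plxna1 was higher and Unc5b lower in siEXOSC3, and the median over the members was 0.03. Of the 16 neuroblastoma identity genes, 8 held a region called in all 6. Phox2a, a homeobox gene of sympathetic neurons, passed as higher in siEXOSC3 (0.72, limma adjusted p = 0.032). Its region also overlaps Inppl1, and it missed the threshold after the GC term was removed (limma adjusted p = 0.094). Alk, a receptor kinase gene, held the 1 siDDX1-only region of the list (6.25% of its genes), with folds of 6.52, 4.30 and 7.11. On summit pileup, the median over the 8 genes with a region called in all 6 was 0.46 on the log2 scale, against 0.04 for all regions. Ret (−0.24) and Alk (−0.25) went the other way.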

How the data were processed

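DRIP-seq peak lists of 6 untreated libraries were compared, with the siScramble and RNase H-digested lists for reference. Per the study's methods and processing notes, the authors aligned reads to mm9 with Bowtie2 2.4.4 and called peaks in each library separately with MACS2 2.2.6 against input. Their test of read counts was not repeated, since reads were not used here. The deposited columns are a display score (not used), the fold enrichment as a linear ratio, and the −log10 p-value and −log10 q-value of each peak.

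Peaks of the 6 lists were merged where they overlapped, and a library called a region when it held a peak there. A region's fold is the highest of its peaks. The whole-number summit pileup and the local background were solved from the fold and the −log10 p of each peak, under the caller's Poisson model with 1 added to both. Classes came from region midpoints and GENCODE annotation on mm9, in the order start, gene end (both within 1000 bases), exon, intron and intergenic. Gene names in GENCODE are older than current ones.

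Library values were compared with exact permutation tests over 20 assignments, and Benjamini-Hochberg adjustment was applied within families. Regions called in all 6 were fitted with limma 3.58.1 (lmFit, eBayes with trend) in R 4.3.3 on median-centred log2 values, adjusted over all 8348 regions. Code was run in Python 3.11.15 and tested on simulated data. Depth is known only relative to the other libraries, from the local background, and a low pileup limits precision by counting error.

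Named regions followed rules on rank and size. On fold, they were the 10 largest differences in each direction that passed or, where fewer than 3 passed, the 5 largest whose groups did not overlap. One-sided regions were the 10 in each direction with the highest lowest fold, the 10 over protein-coding starts, and the 5 genes with most regions. The 5 genes Ddx1, Exosc3, Ints6, Celf4 and Bambi and list members with a one-sided or passing region were added. The members and the 7 gene lists were chosen with earlier results of these data known. In the annotation, 8 snoRNA host genes and 1 exosome cofactor had no match. Some items are not reported here.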

Additional observations from a re-analysis of the deposited data

How the results depend on the processing

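The counts of one-sided regions (378 and 323, siEXOSC3 first) became 235 and 128 at a −log10 q of at least 5, 237 and 185 with peaks up to 1000 bases apart joined, and 176 and 163 with no peak of the other group within 1000 bases. Leaving out 1 library at a time gave 435 to 1496 and 423 to 1403, with 2 calls, or 2 absences, then enough for the group it left. In regions called in all 6, the fits on fold (0 higher, 1 lower) called 3 and 0 without centring, 4 and 7 after quantile normalization, 58 and 24 on summit pileup, 1 and 1 with exactly 1 peak in each library, 4 and 1 after joining, and 1 and 1 with the GC term removed, a setting chosen after seeing the data. Leaving out 1 library gave 0 to 3 and 0 to 5 on fold, and 0 to 73 and 0 to 50 on summit pileup. On summit pileup, removing the GC term gave 9 and 13. The cause of these shifts was not tested.

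Replicate numbers are shared by the groups, but same-numbered libraries did not deviate together (correlations of 0.0466, 0.0076 and 0.0352), so the numbers were not taken as pairs. With the replicate block, fold gave 0 and 0 calls and summit pileup 130 and 59, and Hbs1l lost its call (adjusted p = 0.070). No exact test can pass with the block, whose smallest p is 0.25.

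Differences that missed the threshold also changed sign. For the exon share they were 0.0202 percentage points after joining and −0.290 to 0.137 without 1 library, and for the gene end share −0.0225 to 0.666 without 1 library. The size of GC skew differed by −0.00031 with equal peak numbers. Covered bases of Ddx1 differed by 862.7 at a −log10 q of at least 5, by 343.7 with equal peak numbers, and by −1090 to 419.7 without 1 library. Those of Ints6 differed by 0 in the first 2 settings and by −302 to 0 without 1 library. Without 1 library, log2 peak number differed by −0.10 to 0.28, log2 covered length by −0.14 to 0.38, and the overlap within minus between groups by −0.00408 to 0.0493. No log2 difference of a named region changed sign under any alternative run. These regions were named for their large differences, so the kept sign is no support for them. Median pileups of 8 to 12 fragments limit what peak calls can show in one-sided regions.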
